A study of Mus musculus with 6 samples.

Results

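Cytochromes P450 of families 1 to 3 are the heme enzymes of the hepatocyte endoplasmic reticulum that oxidise drugs, toxins, steroids and fatty acids. They take electrons from NADPH through the reductase Por, and many act on compounds that enter the liver from the gut. Their genes are switched by ligand-bound receptors: the aryl hydrocarbon receptor (Ahr) acts on the Cyp1 genes, the constitutive androstane receptor CAR (Nr1i3) on Cyp2b genes, and the pregnane X receptor PXR (Nr1i2) on Cyp3a genes. Inflammatory cytokines are known as agents that lower many of these transcripts in liver. The members were all rows of the deposited table whose symbol is Cyp followed by family number 1, 2 or 3, a subfamily letter and a gene number. The rule found 59 of 19764 rows in 17 subfamilies, and used no measured value.

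The cells were primary hepatocytes of Bl6/N mice, plated at 400000 per well, held for 16 h in starvation medium with 5 mM glucose and then treated for 8 h. Both groups received 1 µM corticosterone, the glucocorticoid receptor ligand, and 10 µM WY-14643, a PPARα agonist, so the Control cells were hormone- and agonist-treated too. The 3 Control libraries had vehicle in addition and the 3 TNF libraries had 1 ng/ml TNF, a cytokine of inflammation. The labels name no sex or age and do not say whether replicates were separate animals or cultures, so p-values may measure technical spread only. PolyA RNA was sequenced in pairs of reads, to 17612060 to 25114289 reads over genes per library. Levels are read counts scaled by library size (CPM). A change is TNF minus Control in log2 of CPM + 1, where the added 1 shrinks the changes of rare transcripts.

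The label was borne out by hepatocyte transcripts. The 12 hepatocyte markers, such as Alb and Apoa1, summed to 38255 to 56747 CPM in Control and 36391 to 52564 CPM in TNF, and replicate 1 was the lowest library of both groups. Markers of other liver cells were present at lower sums in Control and TNF respectively: 144 to 232 and 147 to 234 CPM for 12 macrophage genes, nearly all of it Cd68, 86.6 to 164 and 83.9 to 156 CPM for 10 endothelial genes, 19.6 to 70.1 and 20.8 to 47.3 CPM for 9 stellate cell genes, mostly Reln, and 52.5 to 62.3 and 55.7 to 75.7 CPM for 8 cholangiocyte genes. The 11 macrophage genes other than Cd68 summed to 0.331 to 1.12 CPM in Control and 0.215 to 1.08 CPM in TNF. None of these markers stood at 0 reads in all libraries. In such bulk samples, fewer cells of a type and less RNA per cell cannot be told apart.

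With TNF, 17 of the 38 members with enough reads to be tested fell and 0 rose. "Fell" and "rose" denote here an adjusted p under 0.05 in limma with the replicate number as a block (the blocked fit), which compares the TNF and Control libraries of the same number. The 17 are 44.7% of the tested members, against 11.2% of all 12293 tested genes that were lower by the same rule; 9.4% of all genes were higher. At an unadjusted p under 0.05 the blocked limma fit held 20 members lower and 1 higher (17.5% and 14.2% of all genes), and blocked limma-voom on the recovered reads called 18 lower and 0 higher (11.1% and 9.4%). On the log2(CPM + 1) scale the decreases ran from -0.59 to -0.13 (percent changes of -33.4 to -8.41 in CPM + 1). The rare Cyp2c39 is shrunk most by the added 1, since its level went from 0.887 ± 0.206 to 0.273 ± 0.195 CPM. Each decrease was seen in all 3 pairs. Cyp2b23, Cyp2c39, Cyp2c40 and Cyp2t4 reached the filter level in all Control libraries and in fewer TNF libraries; without these 4 genes, 16 of 34 members fell and 33 were below 0. The count was 10 of 36 without replicate 2 (1792 of 12158 genes called in either direction). It was 10 of 57 with no filter on low reads (1743 of 16784 genes).

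Without the block, limma called 0 of the 38 members, against 0.0732% of all genes lower and 0.358% higher. Before adjustment that fit held 4 members lower (Cyp1a2, Cyp2c39, Cyp2d22 and Cyp3a59, 10.5% against 4.31% of all genes) and 0 higher (4.44% of genes), and limma-voom without the block also called 0, against 0.0569% of genes lower and 0.317% higher. Unpaired adjusted p-values in limma ran from 0.412 to 0.999 over the members. Every decrease described as a fall therefore rests on the pairing of libraries by number. By the blocked fit, 6 of the 12 hepatocyte markers fell as well, led by Ahsg (-0.60), with a median of -0.15 over the list. Of the tested markers of other cells, 0 of 1 macrophage, 1 of 9 endothelial (Stab2), 1 of 5 stellate (Reln) and 1 of 5 cholangiocyte genes (Pkhd1) fell, and the cholangiocyte gene Sox9 rose (0.58). Their part in the members' changes was not tested.

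**Figure D1:**
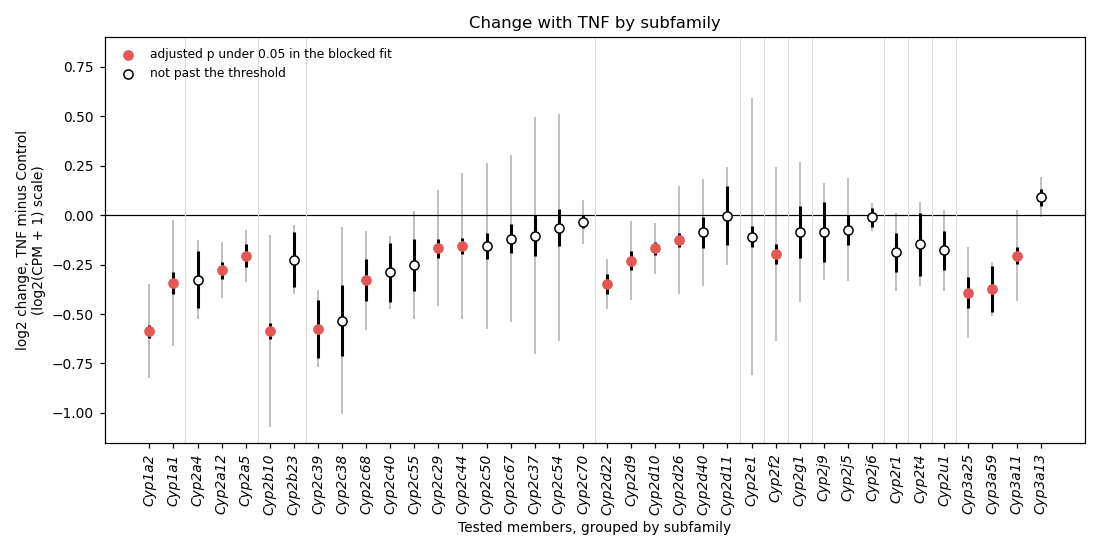
Change with TNF for each of the 38 tested members (points), in log2 units of CPM + 1, grouped by subfamily along the x axis; thick bars are ± 1 SE of the blocked fit and thin bars ± 1 SE of the unpaired fit. Filled points are the 17 members that passed the adjusted p of 0.05 with the block; 37 of the 38 points lie below 0, and Cyp3a13 alone lies above it.

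Direction was more uniform than size. A log2 change below 0 was seen in 37 of 38 members (97.4%, against 53.9% of all genes), and 24 were lower in each of the 3 pairs (63.2% against 27.7%). The exception was Cyp3a13, higher in each pair (2.63% of members against 23.4% of genes). Without the 4 genes that reached the filter level in all Control libraries and in fewer TNF libraries, 21 of 34 members were lower in each pair. Under median-of-ratios scaling 36 members were below 0, since Cyp2j6, at -0.010 with the authors' scaling, then lay at 2.33e-06. When a whole pair was left out, the members below 0 were 33 of 36 without replicate 1, 31 of 36 without replicate 2 and 33 of 34 without replicate 3. When a single library was left out, which breaks a pair, they ranged from 22 of 36 without Control 3 and 27 of 38 without TNF 1 to 36 of 37 without TNF 3. The median change was -0.18 over the members and -0.013 over all genes; the medians over members in pairs 1, 2 and 3 were -0.21, -0.23 and -0.11. The member median was -0.080 without Control 3, -0.078 without TNF 1, -0.30 without Control 1 and -0.40 without TNF 3. Every TNF library lay below every Control library for 3 members (7.89% against 6.66% of genes), Cyp2a5, Cyp2c39 and Cyp3a59, which is a share near the background; Cyp2c39 entered the test through its Control libraries, and without such members the count was 2. Every TNF library lay above every Control library for 0 members (6.59% of genes). On the log2(CPM + 1) scale, Cyp1a2 and Cyp2b10 passed the blocked test with decreases of at least 1.5-fold (5.26% against 0.976%). With a pseudocount of 0.1 in place of 1, the rare Cyp2c39 (-1.58) and Cyp2c38 (-1.13) did so too. The share of all genes at that pseudocount was not counted. These sizes rest on 1, 7 and 8 reads in TNF 1, 2 and 3 for Cyp2c39 and on 1, 19 and 11 for Cyp2c38.

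Transcript output of these families was concentrated in a few genes. Summed over the members, levels were 6352, 6928 and 7832 CPM in Control 1, 2 and 3 and 5185, 6122 and 7030 CPM in TNF 1, 2 and 3, or 0.635% to 0.783% of reads in Control and 0.518% to 0.703% in TNF. The sums of the groups overlap, and within each number the TNF sum is the lower. Cyp2a5, Cyp2c70, Cyp3a11, Cyp1a1 and Cyp1a2 held 60.8% of the member sum in Control. Per kilobase of annotated exon, Control levels were highest for Cyp2a5 (870.3 ± 18.4 CPM per kb, SD, n = 3), whose range overlapped no other member's. Cyp2c70 followed (384 ± 43.3). Its range (357 to 434) lay above that of Cyp1a2 but overlapped that of Cyp2e1 (76.0 to 372), so its place is not resolved. From Cyp1a2 (249 ± 59.8) and Cyp2e1 (227 ± 148) down to Cyp2c37 (5.22 ± 2.97), each member's Control range overlapped that of its neighbour, so their order is not resolved. The lowest tested member was Cyp2j9 at 0.294 ± 0.167 CPM per kb. Reads were counted over introns too, so a level per exonic kb is an approximate length scale. In Control, 25 tested members stood at 10 CPM or more, of which 15 fell, and 13 stood below that level, of which 2 fell. The shares of all genes at these levels were not counted, and the shares of all genes given elsewhere are not matched for level.

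Both Cyp1a genes fell. Cyp1a2, which oxidises caffeine and aromatic amines, stood at 367, 536 and 599.9 CPM in Control 1, 2 and 3 and at 238, 374 and 390.0 CPM in TNF 1, 2 and 3. Each TNF library was below its own partner by a similar step (-0.62, -0.52 and -0.62 on the log2 scale), while TNF 2 and 3 still lay above Control 1, so the groups overlap. The mean change was -0.59 (blocked SE 0.033, adjusted p = 2.14e-08 in limma), a fold of 0.666. Cyp1a1, the oxidase of polycyclic aromatic hydrocarbons and a standard marker of Ahr activity, had 739.7, 576 and 358 CPM in Control and 504, 527 and 281 CPM in TNF. Its Control libraries ran in the opposite order to those of Cyp1a2, with Control 1 the highest for Cyp1a1 and the lowest for Cyp1a2, and its groups overlap widely. Its steps within pairs were uneven (-0.55, -0.13 and -0.35), for a mean of -0.34 (blocked SE 0.056, adjusted p = 0.000478 in limma). The SE from those 3 pairs alone was 0.12, larger than the blocked SE, which borrows its variance from other genes. Of the members that fell, only Cyp2c39, Cyp2c44 and Cyp2d10 had a smaller SE from the pairs than from the blocked fit. For example, Cyp3a25 had 0.15 from the pairs against 0.077, and Cyp2d9 had 0.098 against 0.049. The calls of Cyp1a1 and Cyp1a2 both held whichever pair was left out.

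Cyp1a1 and Cyp1a2 lie head to head on chromosome 9 (mm10, 57676937 to 57703824). Their upstream windows, the 250 bases before the RefSeq start (GRCm38.p6), are shown because the pair shares a locus and a receptor but differs in the order of its Control libraries. Capitals mark GCGTG, the core of the Ahr response element, and TATAAA, the TATA box, each searched on both strands.
Cyp1a1, chr9:57697363-57697612 (+): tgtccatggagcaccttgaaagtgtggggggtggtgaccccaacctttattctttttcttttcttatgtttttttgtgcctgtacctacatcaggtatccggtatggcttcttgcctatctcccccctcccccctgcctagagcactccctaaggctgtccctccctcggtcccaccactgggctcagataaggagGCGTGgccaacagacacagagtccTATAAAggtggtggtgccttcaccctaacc
Cyp1a2, chr9:57683656-57683905 (-): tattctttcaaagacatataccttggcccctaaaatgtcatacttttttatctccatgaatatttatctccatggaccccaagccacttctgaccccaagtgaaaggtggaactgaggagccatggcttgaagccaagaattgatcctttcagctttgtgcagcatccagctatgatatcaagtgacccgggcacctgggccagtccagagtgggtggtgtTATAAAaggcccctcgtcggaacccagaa
The Cyp1a1 window held GCGTG 54 to 50 bases and TATAAA 30 to 25 bases before the start; the Cyp1a2 window held TATAAA 29 to 24 bases before it and no GCGTG. The motifs do not overlap one another. GCGTG occurs in 28.2% of all 32851 windows and TATAAA in 12.4%, so the first is common by itself.

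**Figure D2:**
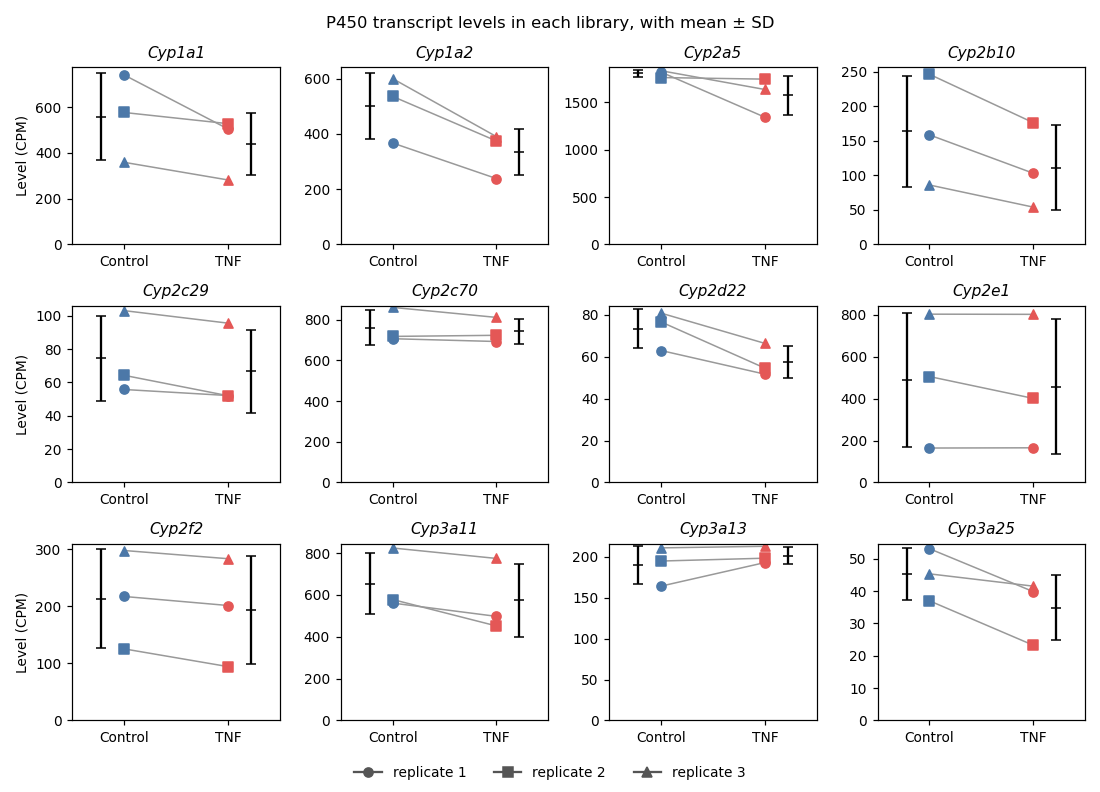
Levels in CPM (y axes, from 0) of 12 members in the 3 Control and 3 TNF libraries; symbols mark the replicate number, grey lines join libraries of the same number, and bars give mean ± SD (n = 3). Lines of Cyp1a2 and Cyp2b10 run down in parallel although the groups overlap, Cyp2e1 spans 164 to 803 CPM within Control, and Cyp3a13 runs upward.

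In the Cyp2a subfamily 2 of 3 tested members fell. Cyp2a5, the coumarin hydroxylase and the most abundant member, had 1819, 1761 and 1833 CPM in Control and 1342, 1744 and 1635 CPM in TNF. All 3 TNF libraries lay below all 3 Control libraries, which were tight, but TNF 2 lay only just below them. The change was -0.21 (blocked SE 0.059, adjusted p = 0.0226 in limma), made up of -0.44, -0.014 and -0.16 in the pairs, with an SE of 0.12 from the pairs alone. Without replicate 1 it was -0.089 (limma adjusted p = 0.276) and the call was lost. Cyp2a12, a testosterone hydroxylase, had 395, 448 and 372 CPM in Control and 297, 412 and 300.3 CPM in TNF. The groups overlap, because TNF 2 was above Control 1 and 3, and the change was -0.28 (blocked SE 0.044, adjusted p = 0.000381 in limma). Cyp2a4, also a steroid hydroxylase, was nearly absent at 2.11 ± 0.320 CPM in Control and 1.51 ± 0.555 CPM in TNF (-0.33, not past the threshold).

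Cyp2a4 and Cyp2a5 are near-copies, with 98.5% identical coding sequence and 24.5% and 32.2% of their 75-base coding windows shared with another gene, so the small count of Cyp2a4 may contain reads of Cyp2a5 or lose its own. Their upstream windows were 98.4% identical over aligned bases, although Cyp2a5 exceeded Cyp2a4 by 856-fold in Control CPM. The windows are shown for that contrast between sequence and level; capitals mark TATAAA and the single match to the NF-kB consensus, searched on both strands.
Cyp2a4, chr7:26306942-26307191 (+): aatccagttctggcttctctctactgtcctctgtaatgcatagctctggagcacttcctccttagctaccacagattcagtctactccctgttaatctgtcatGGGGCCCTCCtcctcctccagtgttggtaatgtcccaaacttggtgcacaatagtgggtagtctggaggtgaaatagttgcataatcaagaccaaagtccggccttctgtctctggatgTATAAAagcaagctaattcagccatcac
Cyp2a5, chr7:26835089-26835338 (+): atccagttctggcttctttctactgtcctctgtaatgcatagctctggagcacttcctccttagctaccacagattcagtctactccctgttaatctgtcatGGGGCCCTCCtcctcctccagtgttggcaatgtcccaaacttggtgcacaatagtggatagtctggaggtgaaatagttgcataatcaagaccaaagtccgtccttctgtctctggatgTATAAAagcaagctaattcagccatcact
The NF-kB consensus is present in 7.25% of all windows and in 4 of the 33 tested members with a window (Cyp2a4, Cyp2a5, Cyp2j5 and Cyp2j6), of which 1 fell. Of all 33 members with a window, 15 fell.

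Cyp2b10, the classical CAR target, fell by 0.59 on the log2 scale. It had 159, 247 and 86.1 CPM in Control and 103, 176 and 54.02 CPM in TNF. Control libraries differed by 2.86-fold and the groups overlap, yet each TNF library was about equally far below its partner (-0.62, -0.48 and -0.66). The blocked SE was 0.040 (adjusted p = 1.82e-07 in limma) and the unpaired SE 0.49. Its relative Cyp2b23 stood at 0.870 ± 0.152 CPM in Control and 0.603 ± 0.179 CPM in TNF and passed the filter through its Control libraries, with a change of -0.22 that was not past the threshold. The Cyp2b10 window is printed because this gene and Cyp1a2 had the largest decreases of the tested members on the log2(CPM + 1) scale; capitals mark GCGTG or its complement CACGC, and the window held no exact TATAAA.
Cyp2b10, chr7:25897408-25897657 (+): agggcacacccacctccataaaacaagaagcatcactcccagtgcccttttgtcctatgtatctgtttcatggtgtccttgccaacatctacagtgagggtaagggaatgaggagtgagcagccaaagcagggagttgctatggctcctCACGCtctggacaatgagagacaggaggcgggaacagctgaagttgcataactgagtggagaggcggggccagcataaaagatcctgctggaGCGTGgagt

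Of 12 tested Cyp2c genes, the subfamily of arachidonic acid epoxygenases, 4 fell, with a median change of -0.16. Cyp2c70, which forms the muricholic acids of mouse bile, was by far the most abundant, with 706, 718 and 860.3 CPM in Control and 693, 723 and 811 CPM in TNF. Its groups overlap and it did not pass (-0.034, blocked SE 0.033, adjusted p = 0.523 in limma). Cyp2c29 had 55.8, 64.3 and 103 CPM in Control and 52.2, 52.0 and 95.6 CPM in TNF, a change of -0.17 (adjusted p = 0.0229 in limma). Replicate 3 was high in both groups, and without replicate 2 the change was -0.10 and no longer called (adjusted p = 0.222 in limma).

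Cyp2c44, an epoxygenase annotated in GENCODE as Cyp2c23 and lying apart from the others on chromosome 19, had 54.1, 89.7 and 121 CPM in Control and 47.2, 78.2 and 114 CPM in TNF. Replicate 1 was the lowest and replicate 3 the highest library of both groups, which overlap, and the change was -0.16 (adjusted p = 0.0154 in limma). Without replicate 2 it was -0.14 and no longer called (adjusted p = 0.0960 in limma). Cyp2c68 had 8.62, 16.0 and 14.8 CPM in Control and 7.85, 9.93 and 12.5 CPM in TNF (-0.33, adjusted p = 0.0408 in limma). Its largest step was in pair 2, without which the change was -0.17 (adjusted p = 0.369 in limma), and 32.4% of its coding windows are shared with Cyp2c40, Cyp2c67 or Cyp2c69. Cyp2c39, known as a retinoic acid hydroxylase, was rare, with 0.718, 1.12 and 0.827 CPM in Control and 0.0479, 0.376 and 0.394 CPM in TNF. All 3 TNF libraries were below all Control libraries, and 0 of them reached the filter level, so Cyp2c39 was tested through its Control libraries alone (-0.58, adjusted p = 0.0117 in limma).

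Among the other Cyp2c genes none passed. Cyp2c38 had the largest CPM ratio between Control libraries of the tested members (0.276, 3.47 and 0.730 CPM, 12.6-fold). Its lowest Control library held 5 reads, and on the log2(CPM + 1) scale the Control range of Cyp2e1 was wider (2.28 against 1.81). In TNF Cyp2c38 had 0.0479, 1.02 and 0.542 CPM, a change of -0.53 (adjusted p = 0.0534 in limma, and called by limma-voom with the block). Cyp2c50 went from 38.3 ± 14.4 to 35.4 ± 16.8 CPM (-0.16), Cyp2c67 from 22.1 ± 9.74 to 20.5 ± 9.88 CPM (-0.12) and Cyp2c54 from 13.1 ± 7.05 to 12.6 ± 7.09 CPM (-0.063). Cyp2c37 went from 9.51 ± 5.41 to 8.97 ± 5.33 CPM (-0.10), with Control 1 at 3.42 against 13.8 and 11.3 CPM in Control 2 and 3. Cyp2c40 (0.985 ± 0.142 to 0.635 ± 0.267 CPM, -0.29) and Cyp2c55 (1.55 ± 0.693 to 1.12 ± 0.481 CPM, -0.25) were rare. Cyp2c37, Cyp2c50 and Cyp2c54 share 14.5%, 20.2% and 16.4% of their coding windows with one another, so reads could be split between them. Cyp2c40 and Cyp2c67 share 61.7% and 38.1% of theirs with each other, Cyp2c68 or Cyp2c69. The low count of Cyp2c40 may therefore contain reads of these genes or lose its own.

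In the Cyp2d subfamily, the mouse relatives of the human codeine and debrisoquine hydroxylase, 4 of 6 tested genes fell. Cyp2d22 had 63.0, 76.7 and 80.9 CPM in Control and 51.7, 54.6 and 66.4 CPM in TNF. Only TNF 3 lay above the lowest Control library, and the change was -0.35 (blocked SE 0.049, adjusted p = 0.000138 in limma). Cyp2d9, a male-predominant testosterone hydroxylase, had 196, 214 and 279.8 CPM in Control and 177, 159 and 258 CPM in TNF. Its groups overlap, its widest step was in pair 2, and the change was -0.23 (adjusted p = 0.00367 in limma).

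Cyp2d10 had 223, 264 and 284 CPM in Control and 197, 229 and 262 CPM in TNF, with even steps of -0.18, -0.20 and -0.11 in the pairs. Its groups overlap, and the change was -0.17 (adjusted p = 0.00196 in limma). Cyp2d26 had 228, 233 and 380.0 CPM in Control and 213, 200.3 and 362 CPM in TNF. Replicate 3 was the high library of both groups, and the change was -0.13 (adjusted p = 0.0201 in limma). Without replicate 2 it was -0.081 and no longer called (adjusted p = 0.172 in limma). Cyp2d40 (18.5 ± 6.39 to 17.2 ± 5.42 CPM, -0.087) and the rare Cyp2d11 (0.515 ± 0.274 to 0.528 ± 0.405 CPM, -0.003) did not pass. Cyp2d10, Cyp2d9 and Cyp2d11 share 29.1%, 18.1% and 22.6% of their coding windows with other genes of the cluster, pseudogenes among them.

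Cyp2e1, the ethanol and acetaminophen oxidase of pericentral hepatocytes, had 164, 505 and 803 CPM in Control and 165, 401 and 802 CPM in TNF. The libraries of 1 number were nearly alike in pairs 1 and 3 and the numbers stood far apart, so Control alone spanned 4.89-fold. The change was -0.11 (0.0095, -0.33 and -0.0015 in the pairs, adjusted p = 0.177 in limma), and Cyp2e1 passed only when replicate 1 or replicate 3 was left out (adjusted p = 0.00307 and 0.0360 in limma). Without replicate 2 its change was 0.0040. Cyp2f2, the naphthalene oxidase of periportal hepatocytes, had 217, 125 and 298 CPM in Control and 201, 94.3 and 283 CPM in TNF. Here replicate 2 was the lowest of both groups, the groups overlap, and the change was -0.20 (adjusted p = 0.0148 in limma). Without replicate 2 it was -0.090 and no longer called (adjusted p = 0.136 in limma). An antisense gene, Gm15883, overlaps Cyp2f2, and their reads cannot be told apart if counting ignored strand. Cyp2g1, best known from olfactory tissue, was rare, with 1.44, 0.951 and 2.82 CPM in Control and 1.10, 0.858 and 2.91 CPM in TNF. Its groups overlap (-0.084, adjusted p = 0.720 in limma).

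None of the 3 tested Cyp2j genes, a further epoxygenase subfamily, passed (median change -0.07). Cyp2j6 had 53.3, 47.5 and 51.3 CPM in Control and 50.6, 49.3 and 51.0 CPM in TNF (-0.010, blocked SE 0.048, adjusted p = 0.916 in limma). Cyp2j5 went from 40.7 ± 11.4 to 38.6 ± 11.9 CPM (-0.073), and Cyp2j9 from 0.982 ± 0.557 to 0.824 ± 0.175 CPM (-0.084), where the TNF libraries carried it past the filter. Cyp2r1, the vitamin D hydroxylase, had 8.12, 11.3 and 10.1 CPM in Control and 6.80, 11.1 and 7.94 CPM in TNF. It was lower in each pair but its groups overlap (-0.19, adjusted p = 0.213 in limma). Cyp2u1, a fatty acid hydroxylase, had 12.5, 11.1 and 9.39 CPM in Control and 12.9, 9.07 and 7.34 CPM in TNF (-0.18, adjusted p = 0.247 in limma). It was higher in pair 1 and lower in pairs 2 and 3, and an antisense gene, 4930534D22Rik, overlaps it. Cyp2t4 had 0.718, 0.496 and 0.633 CPM in Control and 0.239, 0.322 and 0.887 CPM in TNF, reached the filter level in all 3 Control libraries and 1 TNF library, and did not pass the test (-0.15, adjusted p = 0.584 in limma).

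In the Cyp3a subfamily 3 of 4 tested genes fell. Cyp3a11, the main PXR target and the closest counterpart in mouse liver of the chief human drug oxidase, had 561, 578 and 824 CPM in Control and 498, 452 and 774 CPM in TNF. TNF 3 was above Control 1 and 2, so the groups overlap, and the steps were -0.17, -0.36 and -0.090. The change was -0.21 (blocked SE 0.043, adjusted p = 0.00307 in limma) and held without any single pair. Cyp3a25, a steroid hydroxylase, had 53.1, 37.0 and 45.4 CPM in Control and 39.9, 23.3 and 41.5 CPM in TNF. TNF 1 and 3 overlap the Control range, TNF 2 lies below it, and the change was -0.39 (blocked SE 0.077, adjusted p = 0.00211 in limma).

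Cyp3a59 had 6.41, 6.08 and 5.21 CPM in Control and 4.40, 3.92 and 4.63 CPM in TNF. The TNF libraries all lay below the Control libraries (-0.37, adjusted p = 0.0367 in limma), and the call was lost without replicate 1 (-0.33, limma adjusted p = 0.113) or replicate 2 (-0.30, 0.209). Cyp3a13, which lies apart from the Cyp3a cluster on chromosome 5, had 164, 195 and 211 CPM in Control and 193, 198 and 213 CPM in TNF. Only TNF 1 differed much from its partner, and the change of 0.090 did not pass (adjusted p = 0.156 in limma).

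Cyp3a25 and Cyp3a59 have 97.5% identical coding sequence, share 10.6% of their coding windows and have upstream windows that are 95.6% identical, while Cyp3a25 stood 7.66-fold above Cyp3a59 in Control CPM. Their windows are shown with that of Cyp3a11 because all 3 genes fell and each window contains AGGTCA, the nuclear receptor half-site. Capitals mark AGGTCA, read on either strand, CAAAGTCCA, which is the core of the HNF4α site, and, far upstream in Cyp3a11, the letters of the TATA box.
Cyp3a11, chr5:145879855-145880104 (-): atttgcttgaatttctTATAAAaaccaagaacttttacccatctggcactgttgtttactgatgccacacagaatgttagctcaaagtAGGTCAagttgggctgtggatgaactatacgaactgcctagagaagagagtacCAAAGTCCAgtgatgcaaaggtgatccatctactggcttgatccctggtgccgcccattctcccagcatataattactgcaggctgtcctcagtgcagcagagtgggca
Cyp3a25, chr5:146009618-146009867 (-): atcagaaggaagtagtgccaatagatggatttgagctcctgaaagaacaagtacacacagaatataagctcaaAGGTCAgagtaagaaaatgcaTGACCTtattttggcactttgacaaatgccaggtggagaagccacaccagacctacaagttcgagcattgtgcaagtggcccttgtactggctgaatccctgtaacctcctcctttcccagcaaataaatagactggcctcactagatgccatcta
Cyp3a59, chr5:146079008-146079257 (+): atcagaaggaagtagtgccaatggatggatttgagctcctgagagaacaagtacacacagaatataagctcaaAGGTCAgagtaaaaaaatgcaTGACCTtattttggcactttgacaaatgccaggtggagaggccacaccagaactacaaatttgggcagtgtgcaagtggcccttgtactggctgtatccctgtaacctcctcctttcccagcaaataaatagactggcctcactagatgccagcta
The letters TATAAA lie 234 to 229 bases before the Cyp3a11 start, away from the place of a TATA box. AGGTCA lies 162 to 157 bases before the start in Cyp3a11 and, as an inverted pair, 177 to 172 and 156 to 151 bases before it in Cyp3a25 and Cyp3a59. Of the 33 tested members with a window, 15 fell whatever the motif. Among these 33, AGGTCA was present in 10 (14.0% of all windows), 6 of which fell. Cyp2c39, among the 6, held it only in a distant upstream window (chr19:39347096-39347345). The window next to its annotated start (chr19:39510572-39510821) held none. CAAAGTCCA was present in 5 (Cyp2c40, Cyp2c67, Cyp2c68, Cyp2c70 and Cyp3a11; 0.384% of all windows), 2 of which fell. TATAAA was present in 18 members (9 fell) and GCGTG in 4 (3 fell). The similar windows of near-copies are not independent, and a match is a description of letters only.

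The falls were spread over gene clusters. In mm10, the chromosome 7 cluster (25802476 to 27158564) of Cyp2a, Cyp2b, Cyp2f, Cyp2g, Cyp2s and Cyp2t genes had 8 tested members of which 4 fell. The chromosome 19 Cyp2c cluster (39007019 to 40187286) had 11 with 3 falls, and the chromosome 15 Cyp2d cluster (82370527 to 82794245) had 6 with 4 falls. The chromosome 5 Cyp3a cluster (145345270 to 146113283) had 3 tested, all of which fell, and the chromosome 4 Cyp2j cluster (96042660 to 96664119) had 3 with 0 falls. The chromosome 9 Cyp1a pair had 2 tested with 2 falls. Outside these clusters Cyp2c44 fell, and Cyp2e1, Cyp2r1, Cyp2u1 and Cyp3a13 did not. Of all tested genes, 11.2% were lower by the same rule. Near-copies within a cluster can share reads, so the counts are not independent.

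A further 21 members had too few reads to be tested, with 0 to 43 reads over all 6 libraries and at most 11 in one. Cyp2j12 and Cyp3a41a had 0 reads everywhere, which allows 3 reads per library, or 0.124 to 0.166 CPM, for counting error alone. Cyp3a41a shares 95.4% of its coding windows with Cyp3a11, Cyp3a41b or Cyp3a44, so its own reads may have been lost and its 0 is uninformative. The others were Cyp1b1, Cyp2a22, Cyp2ab1, Cyp2b9, Cyp2b13, Cyp2b19, Cyp2c65, Cyp2c66, Cyp2c69, Cyp2d12, Cyp2d34, Cyp2j8, Cyp2j11, Cyp2j13, Cyp2s1, Cyp2w1, Cyp3a16, Cyp3a44 and Cyp3a57. Of the 38 tested members, 31 reached the filter level in all 6 libraries, so the counts of members called refer to those with enough reads and not to the family as a whole.

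The Control libraries differed more in the median member than in the median gene. The highest Control library exceeded the lowest by a median of 1.65-fold over the tested members and 1.22-fold over all genes, and 14 members spanned more than 2-fold. The Control range was larger than the change with TNF in 32 of 38 members (84.2%, against 84.0% of all genes). Control 1 was the lowest Control library for 23 members (60.5%, against 33.5% of genes); among the Control libraries it also had the lowest marker sums for hepatocytes (38255 CPM), macrophages (144), endothelium (86.6), stellate cells (19.6), pericentral genes (422) and periportal genes (2466), and the highest for cholangiocytes (62.3). The part of those marker levels in the members' spread was not tested. Changes pointed down in 32, 34 and 30 of the 38 members in pairs 1, 2 and 3, and pair 2 was the most negative for 18 members, pair 1 for 14 and pair 3 for 6.

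**Figure D3:**
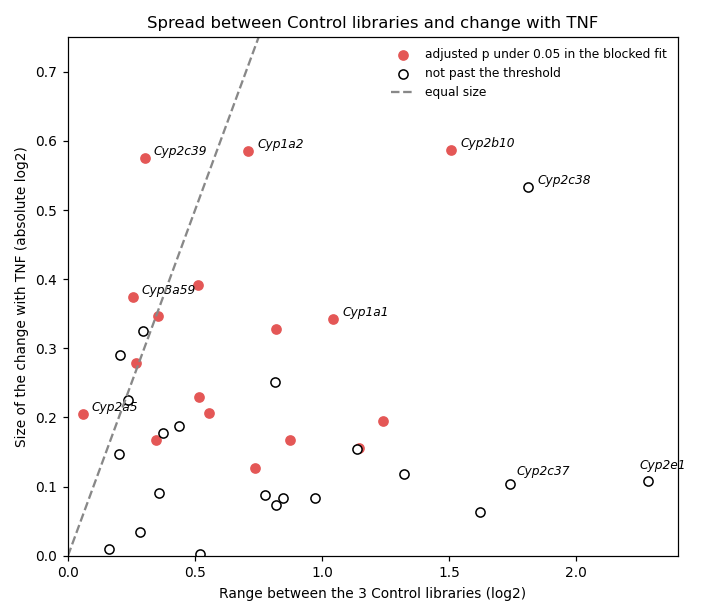
For each tested member, the range between the 3 Control libraries (x axis, log2 of CPM + 1) against the absolute change with TNF (y axis, same units); filled points passed the blocked test and the dashed line marks equal size. Points to the right of the line, 32 of 38, varied more between Control libraries than they changed, with Cyp2e1 the farthest right.

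**Figure D4:**
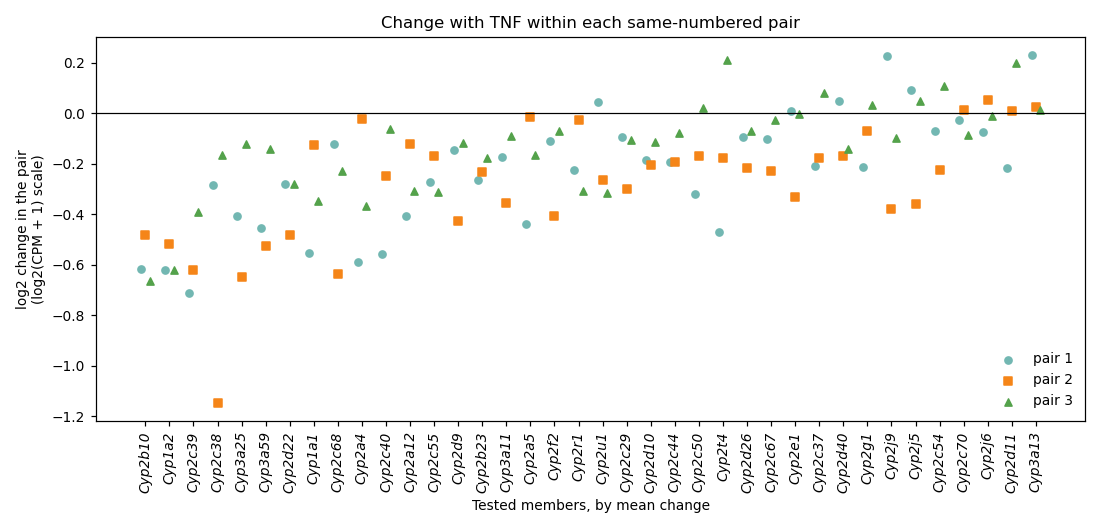
Change with TNF within each same-numbered pair (y axis, log2 of CPM + 1) for the 38 tested members, ordered by mean change along the x axis. The 3 symbols of Cyp1a2 and Cyp2b10 lie close together, those of Cyp2c38 and Cyp3a25 far apart, and the 3 of Cyp3a13 all lie above 0.

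The genes that regulate and serve these enzymes moved unevenly. Among 19 tested sensors and regulators 11 fell and 1 rose in the blocked fit, with a median of -0.25, against 11.2% and 9.4% of all genes. Nr1i3, the CAR gene, had 8.12, 17.3 and 13.3 CPM in Control and 3.54, 6.49 and 3.40 CPM in TNF (-1.33, blocked SE 0.12, adjusted p = 3.68e-06 in limma), and all TNF libraries lay below all Control libraries. Nr1i3 was counted over 3833 of its 4876 bases. Nr1i2, the PXR gene, went from 55.2 ± 2.51 to 38.5 ± 2.28 CPM (-0.51), Ahr from 87.1 ± 14.9 to 67.4 ± 13.0 CPM (-0.37), the bile acid receptor gene Nr1h4 from 101 ± 16.9 to 69.6 ± 9.44 CPM (-0.53) and Hnf4a, a master regulator of hepatocyte genes, from 565 ± 54.2 to 418 ± 36.1 CPM (-0.43); these 4 fell. The one regulator that rose was Nfe2l2, the oxidative stress factor (0.23).

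Of 8 electron transfer partners and epoxide hydrolases, Ephx2 (-0.32) and Ephx1 (-0.20) fell, and the changes of all 8 were below 0. Por, the P450 reductase, had 587 ± 48.6 CPM in Control and 577 ± 53.0 CPM in TNF (-0.026, adjusted p = 0.622 in limma). Of 12 heme genes 4 fell, led by Hmox2 (-0.26), Cpox (-0.23) and Alas1 (-0.21), the rate-limiting step of heme synthesis, and 2 rose. The heme oxygenase Hmox1 rose from 451, 332 and 357 to 739, 408 and 549 CPM (0.54), and Blvrb, the gene of biliverdin reductase B, by 0.29. Blvra, the gene of biliverdin reductase A, did not pass (-0.071, adjusted p = 0.586 in limma).

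Of 24 tested genes in the other P450 families 9 fell and 1 rose (Cyp4v3, 0.12), with a median of -0.15. The largest changes were in the fatty acid hydroxylases Cyp4a14 (-2.26), Cyp4a10 (-2.11) and Cyp4a32 (-0.79) and in Cyp8b1 (-1.40). On the log2(CPM + 1) scale each exceeded any change among families 1 to 3; with a pseudocount of 0.1, Cyp2c39 (-1.58) and Cyp2c38 (-1.13) exceeded Cyp4a32 (-0.88), and Cyp2c39 exceeded Cyp8b1 (-1.50). Cyp4a10 and Cyp8b1 alone of the genes in these 4 lists passed without the block. Of hepatocyte genes marking lobule zones outside the members, 2 of 10 pericentral genes fell (Gulo -0.29, Tbx3 -0.36), and of 11 periportal genes 5 fell, with Cps1 (-1.43), Arg1 (-0.93) and Hal (-0.77) the largest, and Ctsc rose (0.17).

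**Figure D5:**
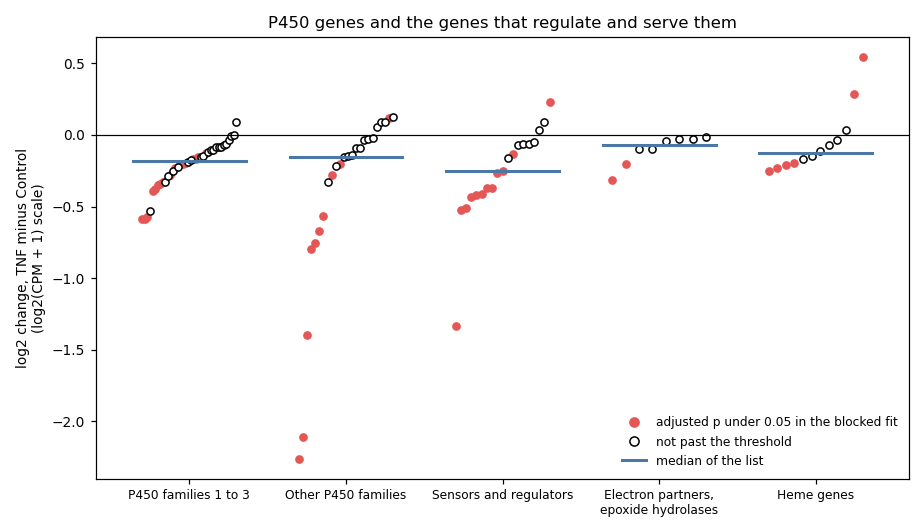
Change with TNF (y axis, log2 of CPM + 1) of each tested gene in 5 lists; filled points passed the blocked test and blue lines give list medians. Members of families 1 to 3 lie between -0.59 and 0.09, while Cyp4a14, Cyp4a10 and Cyp8b1 of the other families and Nr1i3 among the sensors lie below -1.3.

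The authors' deposited table gave an adjusted p under 0.05 for 16 of the 59 members lower (27.1%, against 8.32% of all 19764 rows) and for 0 higher (6.85%). It and the blocked fit shared 15 members. Cyp2a5 and Cyp2f2 were called by the blocked fit alone, and Cyp2c38 by the authors' deposited table alone. In the authors' deposited table the log2 changes of the rare genes were larger, at -1.68 for Cyp2c39 and -1.45 for Cyp2c38.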

How the data were processed

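Reads were aligned with STAR 2.6.1a to mm10, per the submitters' processing notes; which program counted them, on which annotation and with which strand setting is not stated there. The authors deposited log2 CPM with a prior count per library, plus their own log2 fold change, likelihood ratio score, p-value and adjusted p-value per gene. Per the file headers, gene and counted lengths were given; counted lengths mostly equalled gene spans, so reads over introns were included. Subtracting the floor (-3.35) from the deposited log2 values on the linear scale gave whole reads for 100% of 118584 values (tolerance 1e-06), and CPM kept the authors' scaling (0.963 to 1.03 of the totals).

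Genes needed 10 reads at the median library in 3 libraries and 15 in total, which left 12293 tested and 7471 not. limma 3.58.1 (R 4.3.3), trended, was fitted to log2(CPM + 1) over all tested genes, two-sided, with Benjamini-Hochberg adjustment at 0.05, with group only (the planned main fit) and with the replicate number as a block. A planned count model was not used, since the deposited unit was log2; limma-voom on recovered reads stood in. Libraries of the same number, taken from the sample titles, deviated together from their group means (correlations across genes of 0.784, 0.789 and 0.793), so the numbers were taken as pairs. Other combinations ran from -0.472 to -0.335. They are no separate evidence, because deviations from a group mean sum to 0. Between libraries of a group, chi-square divided by its degrees of freedom was 23.5 or more, so none was a duplicate. The fits were tested on simulated data. All 38 tested members were named; those past the threshold in either fit and the top gene per counted kilobase of each subfamily were given by library. From the other lists, genes past the threshold (at most 4 per list by size) and Nr1i3, Nr1i2, Ahr, Por and Hnf4a were named. Library values of Cyp3a13, Cyp2c37 and Cyp2c38, and the names Nfe2l2, Alas1, Ctsc, Cyp4v3 and the cell type markers that passed, were chosen after their values were seen. Sequences are RefSeq windows of 250 bases; 33 of 38 tested members had one. Coding identity and shared 75-base windows came from GENCODE M21 transcripts. Members and lists were chosen with earlier results of these data known. Intervals and floors cover counting error only.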

Additional observations from a re-analysis of the deposited data

How the results depend on the processing

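Without the block, limma called 53 of all genes, 31 with no filter, 9 to 30 when one library was left out, and 2530 with the replicate block. For the members the unpaired count was 0 under every alternative run, limma-voom among them, and 17 with the replicate block. At an unadjusted p under 0.05, the unpaired limma runs held 0 to 6 members lower, and limma-voom held 4. With the block, 10 of 57 members fell with no filter (1743 of 16784 genes called in either direction). With 1 pair left out, 16 of 36 fell without replicate 1 (2309 of 11957 genes called). The counts were 10 of 36 without replicate 2 (1792 of 12158 genes) and 18 of 34 without replicate 3 (2171 of 11897). Median-of-ratios scaling, a pseudocount of 0.1 and limma-voom each gave 18 of 38, which included the 17. These runs called 2572, 2497 and 2520 of 12293 genes in either direction. Cyp1a1, Cyp1a2, Cyp2a12, Cyp2b10, Cyp2d10, Cyp2d22, Cyp2d9, Cyp3a11 and Cyp3a25, 9 of the 17, were called whichever pair was left out. Among the other P450 families, regulators, partners and heme genes, the unpaired count of 2 became 1 with no filter, 1 with limma-voom, 0 to 1 when one library was left out (10 to 18 at an unadjusted p under 0.05 in limma) and 30 with the block. The cause of these shifts was not tested. With the block, 0 of the 17 changed sign under any alternative. Of the members not called, 6 changed sign when a pair was left out (Cyp2j6 and Cyp2t4 without replicate 1, and Cyp2c54, Cyp2e1, Cyp2j5 and Cyp2j9 without replicate 2, from 0.0040 to 0.071). In the unpaired fit without a single library, 4 of the 17 (Cyp2c29, Cyp2c44, Cyp2d26 and Cyp2f2) had changes above 0, from 0.030 to 0.25. Only 3 pairs were measured, and the Control range exceeded the change in 84.2% of members and 84.0% of all genes. The part of that range in the unpaired result was not tested. Members under about 1 CPM rest on few reads.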
